A study of Homo sapiens with 42 samples.

Results

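The integrated stress response regulator genes described here are ATF4, DDIT3, ATF5, CEBPB, CEBPG, PPP1R15A, TRIB3, SESN2, CHAC1 and DDIT4. They were taken by name, with earlier results of these data known. Every entry listed with one of their transcripts was used: 25 of the 94924 entries, belonging to 10 of 42145 genes. The study sequenced mRNA 3′ ends with QuantSeq REV, which reads from the poly(A) tail inwards, in derivatives of MDA-MB-231, a human breast cancer line grown in high-glucose medium with 10% serum. Its title asks how mRNA processing in the nucleus bears on translational control and metastasis. There were 14 groups of 3 libraries, 42 in all, in 3 separate tables. The first table holds cytoplasmic and nuclear RNA of poorly metastatic cells carrying the guide gHNRNPC or the guide gCTRL. HNRNPC is an RNA-binding protein of the nucleus that binds uridine tracts in pre-mRNA. The second table holds total RNA of highly metastatic LM2 cells given 3 µM T4 in DMSO, or the same volume of DMSO, for 6 h. T4 is a compound named in the labels by that code only. Those cells were harvested at 6 h, or after a change of medium at 24 h or 72 h. The third table sets LM2, a lung-metastatic derivative, against its poorly metastatic parent, Par, in cytoplasmic and in nuclear RNA. The labels give replicate numbers but not whether replicates were separate cultures, so a p-value here speaks only of how far these libraries spread, which may be technical.

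The integrated stress response begins when kinases that sense amino acid shortage, unfolded protein in the endoplasmic reticulum, viral RNA or mitochondrial damage phosphorylate the translation initiation factor eIF2. Most translation then falls, while mRNAs with upstream reading frames, ATF4 and ATF5 among them, are translated more. ATF4 protein, with partners of the C/EBP family, turns on genes for amino acid supply, for feedback such as PPP1R15A and TRIB3, and, when stress persists, DDIT3 (CHOP) and its targets in cell death. Control of ATF4 itself is thus largely translational, and RNA levels do not measure it.

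Levels are given as CPM, a gene's reads per M assigned reads after TMM scaling, and differences as log2 fold changes ± standard error (SE) from edgeR's quasi-likelihood test, called at a Benjamini-Hochberg adjusted p under 0.05 over all genes tested. Libraries held 0.798 to 2.3 M reads, and 9351, 8035 and 8542 genes were tested in the 3 tables. HNRNPC, the targeted gene, stood at 99.1 ± 13.0 CPM against 508 ± 31.8 CPM in cytoplasm (SD, n = 3 each; log2 −2.36 ± 0.19, adjusted p = 1.6e-08) and at a log2 change of −2.44 ± 0.20 in nuclei. AXL (130 to 1592 CPM), CD44 and VIM, markers of this line, were present in every library, while SPARC did not exceed 9.0 CPM. Of the markers listed as low, CDH1 did not exceed 2.28 CPM or ESR1 0.875 CPM, and PGR had no read. EPCAM, on the same list, ranged from 0.507 to 20.2 CPM and alone passed the filter. Library 3 of T4 at 6 h (TMM factor 0.502) and the nuclear libraries numbered 2 of LM2 (0.721) and Par (0.731) stood apart, and values without them stand beside the results below. With scaling by library totals alone, the share of calls that were higher went from 50.1% to 64.4% in cytoplasm and from 59.6% to 43.6% in nuclei under the knockdown, and from 21.3% to 4.83% (39.6% with DESeq2) for T4 at 6 h. It went from 42.0% to 24.4% at 24 h and from 38.1% to 66.7% at 72 h, and for LM2 cytoplasm from 36.2% to 54.5% with median-of-ratios scaling. In T4 at 6 h the median log2 change of all genes was −0.11, and −0.50 with library totals.

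Promoters are shown because most members were called higher in the knockdown, CHAC1 and PPP1R15A in both fractions and CEBPG in cytoplasm alone. The CEBPG change in nuclei, log2 1.69 ± 0.64 on few reads, was not called. The RefSeq windows (GRCh38.p14), 250 bases before to 50 after a transcription start, covered all 10 members with 18 windows. The core of the C/EBP-ATF response element, at which ATF4 binds with a C/EBP partner, was searched on both strands as TGATGNAA and occurred in the windows of CHAC1 (on the opposite strand, as TTGCATCA, from position −209) and of CEBPG (from position −42). Of all 35116 promoter windows 3.62% hold it. The cyclic AMP response element TGACGTCA occurred in PPP1R15A alone (from position −58), against 1.85% of all windows. The endoplasmic reticulum stress element, CCAAT followed by CCACG 9 bases on, occurred in none of the 18, against 0.0769% of all windows. The matches lie in different windows and do not overlap. A match describes letters and does not show binding, and a window without a match says only that these letters are not in it. The stretches around the 3 matches are shown on the plus strand, 5′ to 3′, with the matched letters in capitals: chr15:40953251-40953280 for CHAC1 (inside an annotated exon), chr19:33373896-33374112 for CEBPG and chr19:48872171-48872391 for PPP1R15A (both outside exons).
CHAC1: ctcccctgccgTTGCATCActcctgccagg
CEBPG: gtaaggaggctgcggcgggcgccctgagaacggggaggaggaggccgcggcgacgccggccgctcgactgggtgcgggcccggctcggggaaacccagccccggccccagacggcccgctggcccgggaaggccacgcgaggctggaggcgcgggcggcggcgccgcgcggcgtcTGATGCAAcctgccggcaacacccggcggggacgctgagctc
PPP1R15A: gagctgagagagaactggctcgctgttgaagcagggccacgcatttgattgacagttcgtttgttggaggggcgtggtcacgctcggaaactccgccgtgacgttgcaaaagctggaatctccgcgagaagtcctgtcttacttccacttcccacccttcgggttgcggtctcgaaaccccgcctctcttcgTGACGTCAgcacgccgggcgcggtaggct

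Under gHNRNPC, 9 of the 10 members rose in cytoplasm and none fell, where 11.7% of all genes tested rose and 23.4% were called in either direction. In nuclei 8 of the 10 rose and none fell, where 8.43% of genes rose and 14.1% were called in all. The median log2 change of the members was 1.39 in cytoplasm, beside 0.01 for all genes, and 1.74 in nuclei, beside 0.04. Because the members were chosen with earlier results of these data known, these shares describe them and are no test. All 3 gHNRNPC libraries were above all 3 gCTRL libraries for 10 members in cytoplasm (19.7% of all genes) and for 9 in nuclei (16.3%). The filter on low counts kept CEBPG only through its gHNRNPC libraries, so CEBPG lends these counts no support. DDIT3 had the largest log2 change of the members in both fractions and DDIT4 the smallest.

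ATF4 (chromosome 22, 39519695 to 39522685, plus strand, GENCODE 29 on GRCh38, as for all members) encodes the central transcription factor of the response. Its cytoplasmic levels were 1513, 1918 and 1520 CPM with gCTRL and 3068, 2409 and 2900 CPM with gHNRNPC. In nuclei they were 574, 444 and 356 CPM against 948, 1035 and 1391 CPM. Every knockdown library lay above every control library of its fraction, and the changes, log2 0.76 ± 0.20 in cytoplasm (adjusted p = 0.0073) and 1.30 ± 0.20 in nuclei (adjusted p = 0.00012), were called in both.

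DDIT3 (chromosome 12, 57516588 to 57521737, minus strand) encodes CHOP, the C/EBP-family factor tied to cell death under lasting stress. Its levels rose from 122, 131 and 104 CPM to 687, 593 and 636 CPM in cytoplasm and from 49.7, 52.0 and 28.2 CPM to 253, 212 and 331 CPM in nuclei. The ranges lay far apart in both fractions, with log2 changes of 2.43 ± 0.21 (adjusted p = 2.8e-08) and 2.61 ± 0.23 (adjusted p = 3.5e-08). The gene MARS ends over DDIT3 on the other strand, and whether reads were counted by strand is not given in the sources used here. MARS stood at 3.65 CPM with gCTRL and 6.13 CPM with gHNRNPC in cytoplasm (log2 0.73 ± 0.52, adjusted p = 0.32), far under the DDIT3 levels there. In nuclei MARS stood at 11.8 CPM with gCTRL and 11.5 CPM with gHNRNPC (log2 −0.03 ± 0.45, adjusted p = 0.98), nearer to the control levels of DDIT3.

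ATF5 (chromosome 19, 49928702 to 49933935, plus strand), a relative of ATF4 that acts in mitochondrial stress, stood at 124, 146 and 137 CPM in control cytoplasm and at 545, 421 and 444 CPM in knockdown cytoplasm. Its nuclear levels were 29.6, 28.2 and 20.3 CPM against 128, 128 and 185 CPM. The groups did not overlap, and the log2 changes were 1.79 ± 0.19 (adjusted p = 5.2e-07) and 2.49 ± 0.22 (adjusted p = 4.5e-08).

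CEBPB (chromosome 20, 50190734 to 50192689, plus strand) and CEBPG (chromosome 19, 33373330 to 33382686, plus strand) encode C/EBP proteins, which can pair with ATF4. CEBPB went from 247, 271 and 271 CPM to 445, 455 and 442 CPM in cytoplasm and from 129, 125 and 128 CPM to 253, 257 and 277 CPM in nuclei. Its libraries were tightly grouped, with log2 changes of 0.77 ± 0.16 (adjusted p = 0.0011) and 1.04 ± 0.16 (adjusted p = 0.00012). CEBPG was sparse: 30 reads in control and 86 in knockdown cytoplasm, 7 and 19 in nuclei. Only the gHNRNPC libraries, with 12, 34 and 40 reads in cytoplasm against 11, 9 and 10 with gCTRL, took CEBPG past the filter. Its cytoplasmic levels of 5.93, 4.83 and 4.70 CPM against 6.46, 17.2 and 17.0 CPM did not overlap but left the first knockdown library near the controls. The CEBPG change in cytoplasm (log2 1.40 ± 0.41, adjusted p = 0.016) was not called without gCTRL library 2 (adjusted p = 0.051) or 3 (0.057), or gHNRNPC library 2 (0.11) or 3 (0.096). In nuclei it was not called (log2 1.69 ± 0.64, adjusted p = 0.081).

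**Figure D1:**
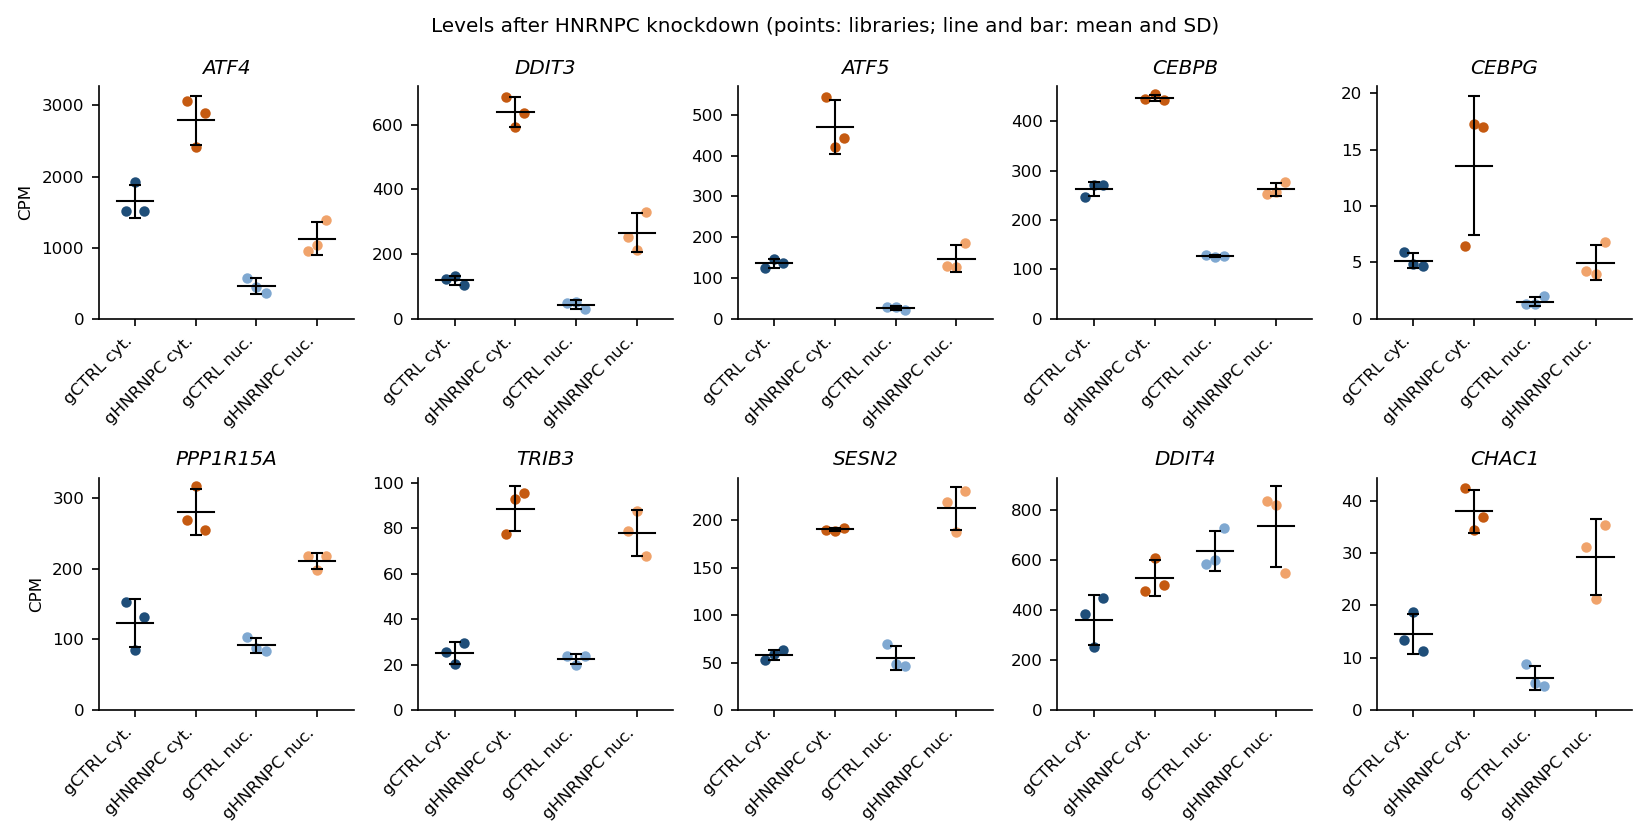
Levels of the 10 members (CPM, linear axis) in every library of the knockdown table, by guide and fraction. Points are libraries, and the line and bar are the group mean and SD. The gHNRNPC points sit above the gCTRL points of the same fraction for 10 members in cytoplasm and 9 in nuclei, the exception being DDIT4 in nuclei.

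PPP1R15A (GADD34; chromosome 19, 48872392 to 48876057, plus strand) encodes the phosphatase subunit that reverses eIF2 phosphorylation, and its promoter stretch is printed above. Its levels were 153, 85.3 and 132 CPM in control and 269, 317 and 255 CPM in knockdown cytoplasm, and 103, 87.9 and 83.2 CPM against 218, 198 and 217 CPM in nuclei. The groups did not overlap, and the log2 changes of 1.18 ± 0.20 (adjusted p = 0.00013) and 1.21 ± 0.20 (adjusted p = 0.00026) were close in size. TRIB3 (chromosome 20, 362835 to 397559, plus strand), a pseudokinase that binds and restrains ATF4 and AKT, went from 25.4, 20.4 and 29.6 CPM to 77.5, 92.8 and 95.6 CPM in cytoplasm and from 23.9, 19.9 and 23.6 CPM to 78.6, 87.5 and 67.6 CPM in nuclei. Its log2 changes were 1.81 ± 0.21 (adjusted p = 1.4e-06) and 1.79 ± 0.22 (adjusted p = 6.2e-06), again with no overlap.

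SESN2 (chromosome 1, 28259527 to 28282491, plus strand) encodes a leucine sensor that restrains MTORC1, and CHAC1 (chromosome 15, 40952962 to 40956519, plus strand) an enzyme that breaks down glutathione. SESN2 went from 52.3, 59.0 and 63.0 CPM to 190.1, 189 and 192 CPM in cytoplasm and from 69.2, 48.1 and 46.5 CPM to 219.7, 188 and 231 CPM in nuclei. The knockdown libraries of a fraction lay close together, and the log2 changes were 1.71 ± 0.19 (adjusted p = 8.2e-07) and 1.96 ± 0.20 (adjusted p = 2.6e-07). CHAC1 went from 13.5, 18.8 and 11.3 CPM to 42.5, 34.5 and 37.0 CPM in cytoplasm and from 8.81, 5.14 and 4.58 CPM to 31.3, 21.3 and 35.3 CPM in nuclei. Its groups did not overlap, with log2 changes of 1.39 ± 0.28 (adjusted p = 0.00079) and 2.23 ± 0.34 (adjusted p = 7.9e-05).

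DDIT4 (REDD1; chromosome 10, 72273920 to 72276036, plus strand) encodes an inhibitor of MTORC1 that is also induced by hypoxia and glucocorticoids. Its levels were 381, 251 and 447 CPM with gCTRL and 474, 608 and 499 CPM with gHNRNPC in cytoplasm. In nuclei they were 582, 598 and 728 CPM against 836, 817 and 545 CPM. Cytoplasmic groups did not overlap but control libraries spread widely, and the nuclear groups overlapped. Neither change was called (log2 0.55 ± 0.21, adjusted p = 0.059, and 0.20 ± 0.21, adjusted p = 0.58). The cytoplasmic DDIT4 change was called with scaling by library totals (0.68, adjusted p = 0.029), with only the 2 cytoplasmic groups fitted (0.60, adjusted p = 0.032) and without gCTRL library 3 (0.73, adjusted p = 0.032).

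The knockdown change was set against the fraction by an interaction term, and no member was called, at 0.0214% of all genes called. The largest differences, nuclei minus cytoplasm, were 0.84 ± 0.44 for CHAC1 (adjusted p = 0.51) and 0.70 ± 0.29 for ATF5 (adjusted p = 0.39) on the log2 scale. ATF5 was the 1 member with an unadjusted p under 0.05 by edgeR, as were 998 genes in all.

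Beside these changes, the immune marker CD68 rose from 6.01 to 18.1 CPM in cytoplasm (log2 1.59 ± 0.37, adjusted p = 0.0031) and from 31.2 to 76.5 CPM in nuclei (1.29 ± 0.29, adjusted p = 0.0033), and CD14 rose in nuclei from 1.92 to 10.3 CPM (2.37 ± 0.62, adjusted p = 0.012). The 6 immune markers summed to 5.64 to 8.09 CPM and 16.7 to 22.1 CPM in control and knockdown cytoplasm, and to 30.8 to 38.4 CPM and 54.9 to 137 CPM in nuclei. Of these 6, CD68 and CD14 passed the filter, CD3E had no read, and PTPRC, which defines leukocytes, did not exceed 0.850 CPM in any library of the series. CD14 passed only through the gHNRNPC nuclear libraries, where it is high, so its call is not independent of the filter. The part of these markers in the members' changes was not tested. In bulk RNA, fewer cells of a kind and less RNA per cell cannot be told apart.

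Other genes of the pathway came from lists, also chosen with earlier results of these data known. Of 46 further targets of ATF4 and CHOP, 40 were tested under the knockdown, of which 21 rose and 1 fell in cytoplasm and 17 rose and 1 fell in nuclei, with a median log2 change of 0.71 in each. Beside these, 11.7% and 8.43% of all genes rose, and the medians of all genes were 0.01 and 0.04. In cytoplasm the largest were ATF3, a stress-induced repressor (log2 3.76 ± 0.65, adjusted p = 0.0002), STC2, a secreted glycoprotein (2.99 ± 0.68), and SLC3A2, the heavy chain of amino acid exchangers (2.75 ± 0.25, adjusted p = 3.8e-08). NDRG1, a hypoxia-induced gene, fell there by 2.09 on the log2 scale (SE 0.22). In nuclei they were GDF15, a stress cytokine, at 767 against 120 CPM (2.67 ± 0.20), the tryptophanyl-tRNA synthetase WARS (2.54 ± 0.74), STC2 (2.17 ± 0.58) and the asparagine synthetase ASNS (2.11 ± 0.20).

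Of 24 genes of the unfolded protein response of the endoplasmic reticulum, 21 were tested, and 9 rose in cytoplasm (median log2 change 0.61) and 5 in nuclei, with none falling, beside the same shares and medians of all genes. ERN1, the sensor IRE1, had 3 reads in control and 50 in knockdown cytoplasm. The ratio was 15.8, with a counting interval of 5.09 to 79.0 (95%, counting error only), and ERN1 rose in nuclei (log2 3.23 ± 0.49). Those 3 control reads could not take ERN1 past the filter on low counts, so ERN1 lends these counts of risen genes no support. DERL1, of the degradation channel, rose in both fractions (3.23 ± 0.31 and 2.26 ± 0.20), SELENOS (2.01 ± 0.46) and the chaperone HSP90B1 (1.70 ± 0.36) in cytoplasm, and the chaperone HSPA5 (1.88 ± 0.30) and HERPUD1 (0.86) in nuclei. Among kinases and subunits of eIF2 and eIF2B, 10 of 14 were tested in cytoplasm, and 1 rose and 2 fell, where 23.4% of all genes were called. EIF2S2 rose (log2 1.39 ± 0.32), while EIF2S3 (−1.88 ± 0.21) and the heme-regulated kinase gene EIF2AK1 (−0.67) fell, and in nuclei EIF2S2 rose (1.80) and EIF2S3 fell (−0.95). Of 21 partners in MTORC1 control, mitochondrial stress and bZIP pairing, 15 were tested, of which 2 rose and 3 fell in cytoplasm and 1 rose and 2 fell in nuclei, where 23.4% and 14.1% of all genes were called. FOS rose in both (2.58 ± 0.59 and 2.12), CEBPA in cytoplasm (1.18), and TSC2 (−1.59 and −1.02) and TRIB2 (−1.52 and −0.75) fell in both.

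The deposited tables list each gene as transcript ends and, for some, further 3′-end positions, and 11 of the 25 member entries were tested singly. Under the knockdown 10 of these 11 were called in each fraction, all higher, where 22.3% of all entries were called in cytoplasm and 12.5% in nuclei. DDIT4 divided: its added position rose in cytoplasm (log2 1.71 ± 0.27, adjusted p = 8.4e-05) and nuclei (1.88 ± 0.29, adjusted p = 9.9e-05), while its transcript end did not pass (0.48, adjusted p = 0.13, and 0.15, adjusted p = 0.73). The position took 3.25, 6.84 and 4.0% of DDIT4 reads in control cytoplasm and 12.3, 7.17 and 10.6% in knockdown cytoplasm. In nuclei it took 2.92, 2.47 and 1.35% against 4.15, 6.75 and 11.3%. The groups did not overlap in either fraction, though library 2 of each cytoplasmic group lay close to the other. A test of the ratio of the position to the end (an interaction of entry and group) called DDIT4 in nuclei (log2 ratio change 1.74 ± 0.42, adjusted p = 0.023), where 3.68% of genes were called, and not in cytoplasm (1.21 ± 0.40, adjusted p = 0.057), where 11.6% of 1168 genes were. The nuclear call was lost without gCTRL library 2 (adjusted p = 0.077) or 3 (0.099), or gHNRNPC library 2 (0.075) or 3 (0.11). SESN2 was the other member with both entries deep enough, and its position rose with its sum (log2 1.39 ± 0.23 in cytoplasm and 2.10 ± 0.24 in nuclei). That position held 32.7 ± 4.47% and 26.0 ± 3.14% of SESN2 reads in control and knockdown cytoplasm, and 34.3 ± 4.59% and 37.4 ± 3.57% in nuclei (SD, n = 3 each). The SESN2 ratio was called in none of the 7 comparisons. In the others 5.33%, 2.48% and 0% of genes were called with T4 at 6, 24 and 72 h, and 1.40% and 0% in LM2 cytoplasm and nuclei.

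**Figure D2:**
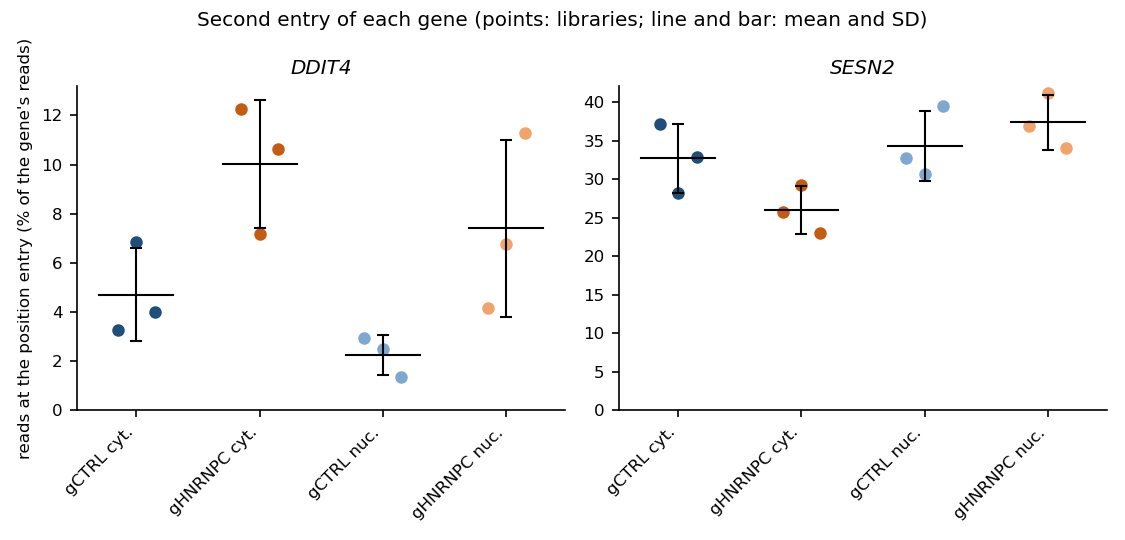
Share of DDIT4 and of SESN2 reads (percent) assigned to the added 3′-end position in each library of the knockdown table, by guide and fraction. Points are libraries, and the line and bar are the group mean and SD. The DDIT4 share averages 2.25% and 7.40% in control and knockdown nuclei, while the SESN2 shares lie between means of 26.0% and 37.4%.

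T4 at 6 h went with lower levels of CHAC1, DDIT3, PPP1R15A and TRIB3 in LM2 cells. These 4 of the 10 members fell and none rose, where 12.6% of all genes fell and 16.0% were called in either direction. The same 4 were lower in every T4 library than in every DMSO library, as were 22.9% of all genes. The median log2 change of the members, −0.11, equalled that of all genes. ATF4, ATF5, SESN2, DDIT4, CEBPB and CEBPG were not called.

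DDIT3 stood at 141, 111 and 144 CPM with DMSO and at 27.0, 21.3 and 27.0 CPM with T4 at 6 h. The T4 libraries were close to each other and far under the DMSO libraries, with a log2 change of −2.41 ± 0.20 (adjusted p = 6.7e-07). MARS, on the other strand, stood at 14.0 and 13.7 CPM (log2 −0.25, adjusted p = 0.74), a level not far under that of DDIT3 in the T4 libraries. PPP1R15A stood at 151, 142 and 147 CPM with DMSO and at 55.8, 51.7 and 15.8 CPM with T4, the lowest value being that of library 3 (log2 −1.74 ± 0.28, adjusted p = 0.00038). TRIB3 went from 33.0, 40.3 and 39.3 CPM to 17.1, 12.9 and 6.75 CPM (−1.49 ± 0.34, adjusted p = 0.0067). CHAC1 was close to the limit of depth: 27, 24 and 13 reads with DMSO and 3, 1 and 3 with T4 (log2 −2.51 ± 0.54, adjusted p = 0.0040). All 4 were called lower without library 3 as well, and DDIT4 was then called higher (log2 0.72, adjusted p = 0.035).

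ATF4 levels at 6 h were 1526, 1359 and 1543 CPM with DMSO and 1499.96, 1457 and 2878 CPM with T4. The high value was that of library 3, and the other T4 libraries lay within the DMSO range (log2 0.40 ± 0.25, adjusted p = 0.28). Without library 3 the ATF4 change was 0.01 (adjusted p = 0.98). DDIT4 had 137, 145 and 122 CPM with DMSO and 203, 236 and 51.8 CPM with T4, library 3 lying below and the other 2 above all controls (0.32 ± 0.35, adjusted p = 0.56). CEBPB had 244, 256 and 229 CPM against 239, 274 and 124 CPM, which overlapped, as did ATF5 and SESN2. Its change was −0.18, and 0.08 (adjusted p = 0.81) without library 3.

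**Figure D3:**
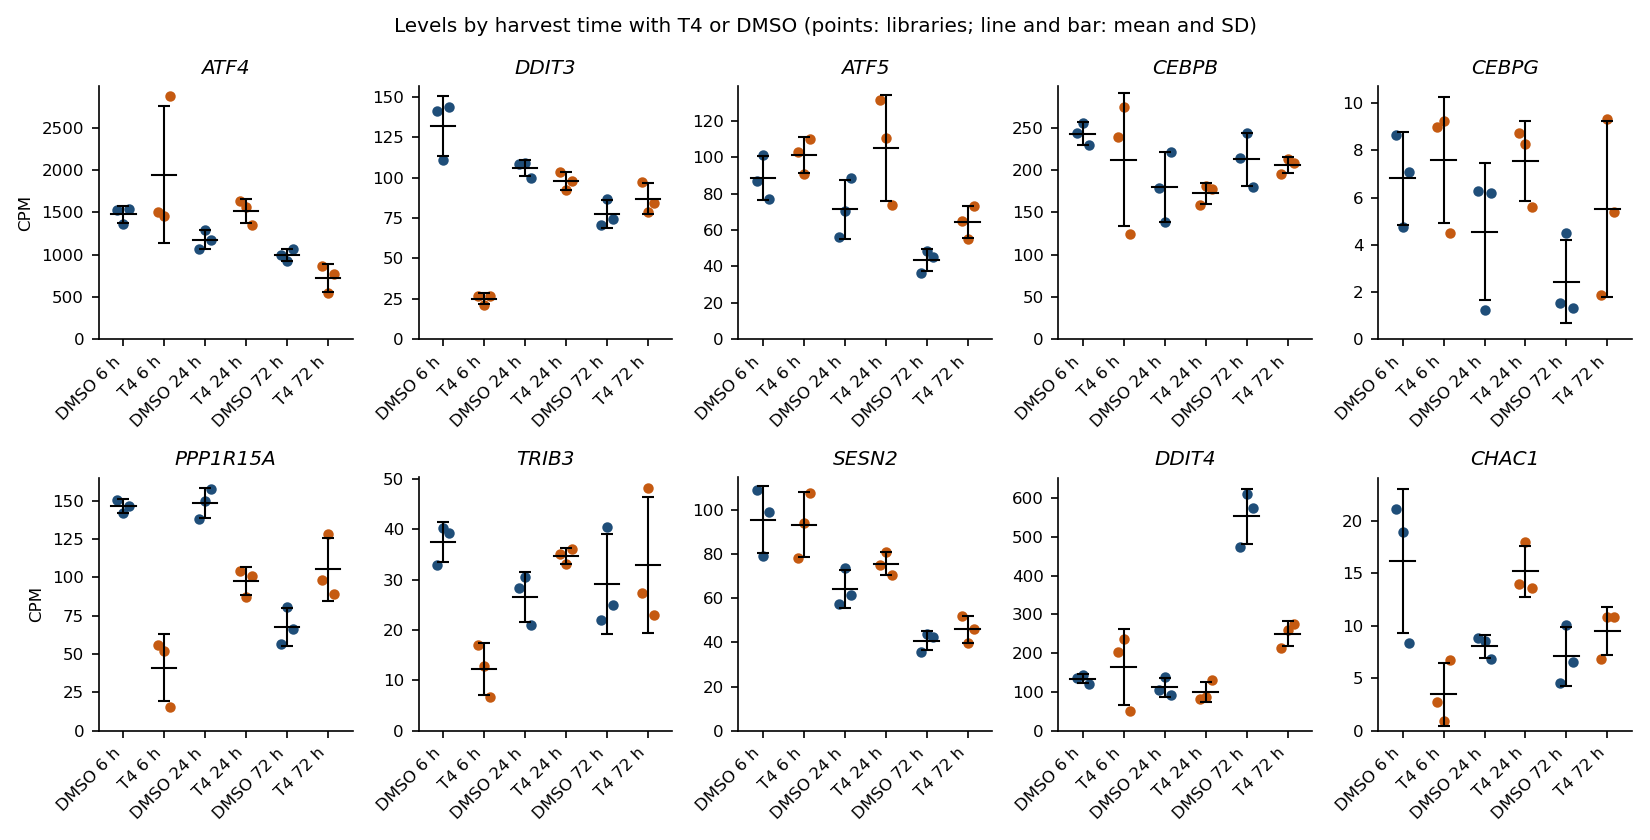
Levels of the 10 members (CPM, linear axis) in every library of the T4 table, by treatment and harvest time. Points are libraries, and the line and bar are the group mean and SD. At 6 h the T4 points of DDIT3, PPP1R15A, TRIB3 and CHAC1 lie under the DMSO points, and no member is called at 24 h or 72 h.

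At 24 h, after the change of medium, no member was called by edgeR, where 5.24% of genes were. Unadjusted p-values fell under 0.05 for 3 members and for 1985 of the 8035 genes tested, and DESeq2 called 1 member. DDIT3 stood at 103, 92.4 and 98 CPM with T4 and 108, 109 and 100.03 CPM with DMSO (log2 −0.11 ± 0.17, adjusted p = 0.72). The highest T4 library lay inside the DMSO range and the others a little below it. CHAC1 had 14.0, 18 and 13.7 CPM against 8.81, 8.55 and 6.79 CPM, above all controls without passing (0.92 ± 0.39, adjusted p = 0.16). PPP1R15A had 104, 87.1 and 101 CPM against 138, 149.6 and 157 CPM, all T4 libraries lying below (−0.61 ± 0.26, adjusted p = 0.16). It was called lower by DESeq2 (−0.66, adjusted p = 0.032) and with only the 24 h groups fitted (−0.73, adjusted p = 0.0055). TRIB3 and ATF4 changed by 0.38 ± 0.29 (adjusted p = 0.43) and 0.37 ± 0.25 (adjusted p = 0.37). Their T4 libraries too lay above all DMSO libraries, which makes 3 members with CHAC1 (21.3% of all genes). PPP1R15A was the 1 member wholly below (16.5% of all genes).

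The change with T4 differed between 24 h and 6 h by an interaction test for 3 members, all in the upward direction, where 7.24% of genes went that way and 9.10% were called in all. The difference, 24 h minus 6 h, was 3.43 ± 0.67 for CHAC1 (adjusted p = 0.0037), 2.29 ± 0.26 for DDIT3 (adjusted p = 3.8e-05) and 1.87 ± 0.45 for TRIB3 (adjusted p = 0.015) on the log2 scale. PPP1R15A gave 1.13 ± 0.38 (adjusted p = 0.068). Without T4 6 h library 3, 3 members were called upward and 1 downward.

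At 72 h no member was called by edgeR, where 0.261% of genes were. An unadjusted p under 0.05 was found for 3 members and for 677 genes in all. The largest was DDIT4, at 475, 612 and 575 CPM with DMSO and 214, 260.2 and 276 CPM with T4, groups that did not overlap (log2 −1.15 ± 0.34, adjusted p = 0.24, and −1.13, adjusted p = 0.031 with no filter on low counts). PPP1R15A had 56.3, 80.8 and 66.3 CPM with DMSO and 98.1, 129 and 89.2 CPM with T4 (0.63 ± 0.26, adjusted p = 0.48), the T4 libraries lying above where at 24 h they lay below. That difference between 72 h and 24 h did not pass the interaction test (1.24 ± 0.37, adjusted p = 0.165), in which 0.0871% of genes and no member were called. In that test 2 members had an unadjusted p under 0.05, as did 1361 genes in all. ATF4 had 862, 541 and 769.7 CPM with T4 against 992, 928 and 1072 CPM (−0.46 ± 0.25, adjusted p = 0.65). All T4 libraries lay above all DMSO libraries for 2 members and below for 2, as for 9.50% and 8.82% of all genes.

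DMSO cells moved with time too, and these libraries are the controls of the comparisons above. Between 6 h and 24 h no gene passed at all, with 485 genes and 2 members, SESN2 (log2 −0.57 ± 0.19) and CHAC1 (−0.98 ± 0.39), at an unadjusted p under 0.05. Between 24 h and 72 h DDIT4 rose from 104, 138 and 92.6 CPM to the levels above (log2 2.31 ± 0.36, adjusted p = 0.00085), and PPP1R15A fell (−1.13 ± 0.26, adjusted p = 0.023), where 1.85% of genes rose and 0.821% fell (2.68% in all).

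Singly, 4 of the 11 member entries tested were lower with T4 at 6 h (14.1% of entries called), and none was called at 24 h (4.85%) or 72 h (0.149%). Of the further ATF4 and CHOP targets 32 were tested with T4. At 6 h 4 of the 32 fell and none rose, a share near the 12.6% of all genes that fell: the cystine transporter gene SLC7A11 (log2 −1.07 ± 0.34, adjusted p = 0.041), the death receptor gene TNFRSF10B (−0.98 ± 0.31), SLC3A2 (−0.96 ± 0.30) and the cysteinyl-tRNA synthetase gene CARS (−0.72 ± 0.18). At 24 h 4 rose and none fell, where 177 of all 8035 genes rose and 5.24% were called in either direction. The 4 were GDF15 (2.05 ± 0.24, adjusted p = 9.8e-05), the bZIP gene JDP2 (1.73 ± 0.30), the glycyl-tRNA synthetase gene GARS (0.77) and the amino acid transporter gene SLC38A2 (0.76). At 72 h GDF15 alone of the list rose (1.32 ± 0.21, adjusted p = 0.0066). Of the 19 unfolded protein response genes tested, XBP1, which encodes the factor spliced by IRE1, fell at 6 h (−1.16 ± 0.23, adjusted p = 0.0026), and none was called at 24 h or 72 h. Of the eIF2 list EIF2S1 fell at 6 h (−1.0) and EIF2S3 at 24 h (−0.75). Of the MTORC1 and mitochondrial list 2 rose and 4 fell of 15 tested at 6 h, where 16.0% of all genes were called. FOS had 3 reads with DMSO and 30 with T4, a ratio of 15.5 (counting interval 4.83 to 79.5), and TSC1 (−1.85), CREB1 (−1.70) and JUN (−1.52) fell. LONP1, the mitochondrial protease gene, fell at 24 h (−0.84). AXL, a marker of the line, fell at 24 h (−1.23 ± 0.19), and its part in these results was not tested.

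In LM2 against Par, CEBPB was higher in both fractions and ATF4 in cytoplasm. These 2 of the 10 members were higher in cytoplasm and none was lower, where 3.95% of genes were higher and 10.9% were called in either direction. In nuclei CEBPB was the 1 member called, where 1.15% of genes were higher and 2.22% were called in all. Median log2 changes of the members were 0.35 and 0.13, beside −0.02 and 0.01 for all genes. All LM2 libraries lay above all Par libraries for 4 members in cytoplasm (21.4% of all genes) and 2 in nuclei (7.21%). They lay below for 1 in cytoplasm (21.5%) and 0 in nuclei (9.38%).

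CEBPB stood at 120.5, 127 and 129 CPM in Par and at 266, 281 and 311 CPM in LM2 cytoplasm, and at 98.9, 70.8 and 83.7 CPM against 234, 245 and 213 CPM in nuclei. LM2 libraries lay above Par libraries in both fractions, with log2 changes of 1.19 ± 0.16 (adjusted p = 0.0020) and 1.45 ± 0.16 (adjusted p = 0.00083). The cytoplasmic call was lost with scaling by library totals (1.12, adjusted p = 0.060), and the nuclear call with the nuclear groups fitted alone (1.44, adjusted p = 0.072). Without both nuclear libraries numbered 2 the nuclear change was 1.28 (adjusted p = 0.0013). ATF4 stood at 1155, 989 and 1227 CPM in Par and at 2245, 2313 and 2454 CPM in LM2 cytoplasm, with no overlap (log2 1.06 ± 0.28, adjusted p = 0.039). Its call was lost without any 1 of the 6 cytoplasmic libraries, at adjusted p-values of 0.065 to 0.15. In nuclei ATF4 had 280.2, 442 and 336 CPM against 316, 794 and 569.98 CPM, which overlapped (0.67 ± 0.28, adjusted p = 0.32), and it was called without LM2 nuclear library 1 (0.95, adjusted p = 0.045).

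CHAC1 stood at 8.12, 10.5 and 7.63 CPM in Par and at 15.9, 20.8 and 18.1 CPM in LM2 cytoplasm, groups that did not overlap (log2 1.06 ± 0.31, adjusted p = 0.052). It was called with median-of-ratios scaling (adjusted p = 0.037), from transcript ends alone (0.048), by DESeq2 (0.025), with the cytoplasmic groups fitted alone (0.012) and without both nuclear libraries numbered 2 (0.021). DDIT4 had 348, 331 and 322 CPM in Par nuclei and 802, 388 and 551 CPM in LM2 nuclei, all LM2 libraries lying above (0.80 ± 0.23, adjusted p = 0.11). Its lowest LM2 value was that of library 2, and it was called without that library (1.02, adjusted p = 0.024) or without both libraries numbered 2 (1.01, adjusted p = 0.015). PPP1R15A had 172, 173 and 132 CPM in Par and 122, 105 and 107 CPM in LM2 cytoplasm, all below (−0.51 ± 0.23, adjusted p = 0.185). With the cytoplasmic groups fitted alone it was called lower (−0.53, adjusted p = 0.0080) and ATF5 higher (0.37, adjusted p = 0.021). DDIT3 overlapped, at 119, 93.2 and 154 CPM against 119, 101 and 122 CPM (−0.10 ± 0.30, adjusted p = 0.88). CEBPG, with as few as 0 reads in a library, was not called in either fraction.

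**Figure D4:**
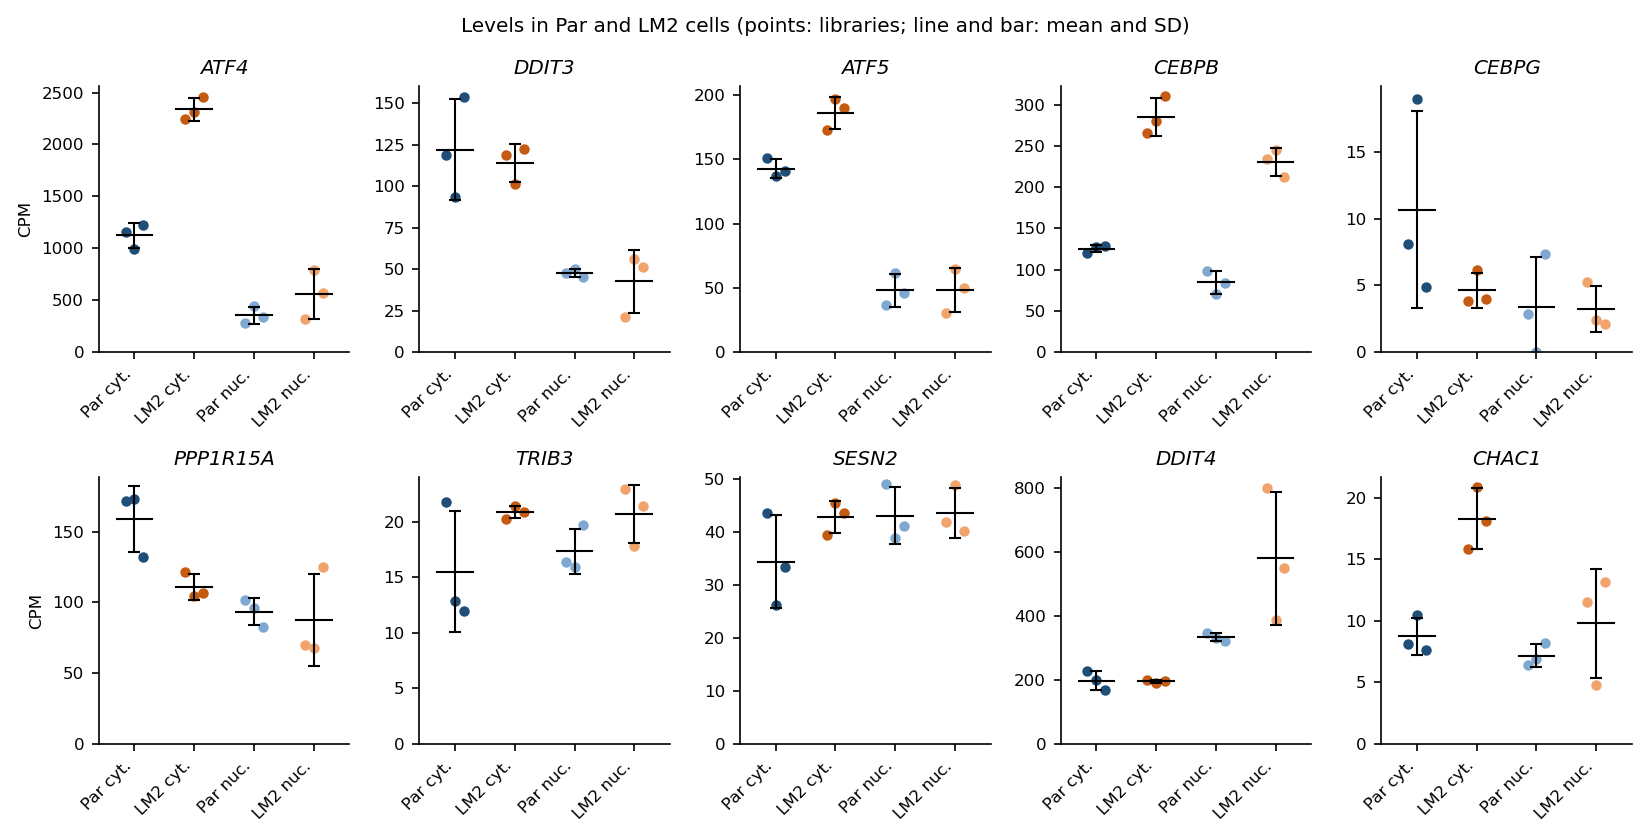
Levels of the 10 members (CPM, linear axis) in every library of the table of LM2 and Par cells, by line and fraction. Points are libraries, and the line and bar are the group mean and SD. The LM2 points of CEBPB lie above the Par points in both fractions, and those of ATF4 in cytoplasm.

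Between fractions the LM2 difference was called for no member and no gene (0%). An unadjusted p under 0.05 was found for 1 member, DDIT4 (log2 0.81 ± 0.32, adjusted p = 0.49), and for 757 genes in all. No member was called without nuclear library 2 of either line. Among single entries, 3 member entries were called in LM2 cytoplasm (10.1% of entries) and 1 in nuclei (1.87%). One of the 3 was the added position of DDIT4 (1.65 ± 0.41, adjusted p = 0.032), resting on 44 reads in LM2 and 17 in Par. Of 31 further ATF4 and CHOP targets tested, 4 were higher and 2 lower in cytoplasm, where 3.95% of all genes were higher and 10.9% were called. PHGDH, the entry enzyme of serine synthesis (log2 3.18 ± 0.46, adjusted p = 0.0035), JDP2 (1.31 ± 0.29) and the mitochondrial serine enzyme SHMT2 (1.03 ± 0.24) were higher, and TXNIP, a thioredoxin inhibitor, was lower (−2.26 ± 0.48). PHGDH alone of the list was called in nuclei (3.11 ± 0.54, adjusted p = 0.011). Of 20 unfolded protein response genes 4 were lower in cytoplasm and none higher, where 594 of all 8542 genes were lower. The median log2 change of the 20 was −0.79, beside −0.02 for all genes. The 4 were HSP90B1 (−2.02), PDIA6 (−1.44), MANF (−1.21) and CALR (−0.73), chaperones and folding factors of the endoplasmic reticulum. Of the eIF2 list none was called, and of 13 MTORC1 and mitochondrial genes RHEB was lower (−0.79). COL1A1, on the fibroblast list, was seen in 42 LM2 reads and 3 Par reads of the cytoplasm (ratio 17.7, counting interval 5.65 to 89.1) and in 163 against 1 in nuclei. Of the 6 fibroblast and endothelial markers COL1A1 was the 1 that passed the filter, and only through LM2 libraries. COL3A1 and CDH5 had no read in this table, and PDGFRB averaged 1.02 CPM in LM2 and 0.748 CPM in Par nuclei. The 6 summed to 7.93 to 8.88 CPM in LM2 and 0 to 1.43 CPM in Par cytoplasm, and to 27.1 to 64.3 CPM and 0 to 1.64 CPM in nuclei. The part of COL1A1 in these results was not tested.

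In gCTRL cells, 6 of 10 members were lower and 1 higher in nuclei than in cytoplasm, where 27.6% of genes were lower and 33.9% higher (61.5% in all), so that the share of members called was near that of all genes. ATF5 (log2 −2.38 ± 0.22), ATF4 (−1.85 ± 0.21), CEBPG (−1.73 ± 0.60, adjusted p = 0.016), DDIT3 (−1.45 ± 0.23), CHAC1 (−1.21 ± 0.35, adjusted p = 0.0044) and CEBPB (−1.05 ± 0.16) were lower, and DDIT4 was higher (0.82 ± 0.21, adjusted p = 0.0016). In Par, 5 were lower and 1 higher, where 21.9% of genes were lower and 25.9% higher (47.8% in all): ATF4 (−1.67 ± 0.29), ATF5 (−1.58 ± 0.26), DDIT3 (−1.35 ± 0.31), PPP1R15A (−0.76 ± 0.24, adjusted p = 0.021) and CEBPB (−0.57 ± 0.16, adjusted p = 0.013) were lower and DDIT4 was higher (0.76 ± 0.23, adjusted p = 0.020). Without Par nuclear library 2 the counts were again 5 lower and 1 higher. The nuclear RNA MALAT1 stood at 51.6 CPM in gCTRL nuclei and 5.33 CPM in cytoplasm, and at 19.2 and 3.80 CPM in Par. NEAT1, the other nuclear RNA listed, averaged 1.28 CPM in gCTRL nuclei, had no read in Par nuclei and did not exceed 1.89 CPM in any library.

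**Figure D5:**
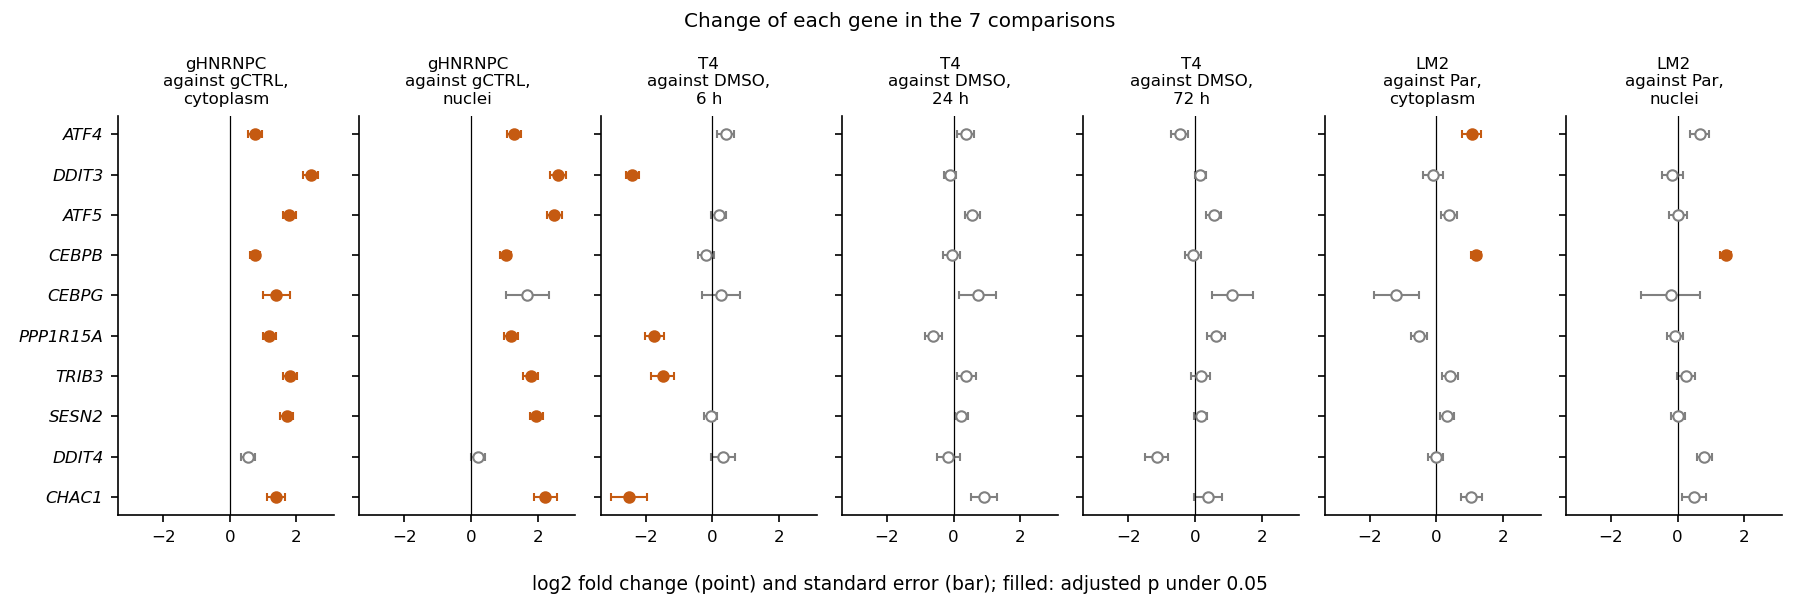
Log2 change of each member with its standard error in the 7 main comparisons, with filled points where the adjusted p is under 0.05. Changes under gHNRNPC lie between 0.20 and 2.61, those of T4 at 6 h reach −2.51, and CEBPB is filled in both LM2 comparisons.

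The genes whose levels ran most like those of ATF4 over the 12 knockdown libraries were C11orf98 (Pearson r 0.987), KIAA1143 (0.986), ZNF580 (0.980), RPL13AP3 (0.980) and PYCR1 (0.979). Over the 18 T4 libraries they were ASNS (0.940), YIPF4 (0.920), PSMD4 (0.912) and ASB1 (0.911). For DDIT3 they were KRT81 (0.981), CDKN1A (0.980), PRMT5 (0.978), AC121761.1 (0.976) and IER2 (0.976) over the knockdown table. Over the T4 table they were STK35 (0.949), CCNF (0.948), CHD8 (0.946), SNX5 (0.942) and ZC3H4 (0.941). These correlations are of log2 CPM across libraries that share groups, fractions and depth, and they describe likeness only.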

How the data were processed

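The authors deposited 3 tables of estimated counts per 3′-end entry, made with Salmon 0.14.1 on hg38 per the submitters' processing notes. Transcript ends were matched to GENCODE 29 by transcript ID (66115 of 71604), and position entries went with the transcript listed above them. Positions fell within the GRCh38 span of their transcript in only 9.66% of cases, so no position is given by coordinate. Columns named MDAtr were taken as Par, the only other line of that table in the labels. Entries were summed per gene and rounded, which left 0.934 to 4.23% of reads unused. Genes were filtered with filterByExpr, scaled with TMM and tested in edgeR 4.0.16 (R 4.3.3) with all groups of a table in 1 fit. Site use was tested on the 2 most used entries with a mean of at least 10 counts. Scripts were tested on simulated data. Biological coefficients of variation were 18.8, 24.8 and 36.7% in the 3 tables, and intervals on read ratios are exact and cover counting error only. Alternatives used other scalings, no filter, transcript ends only, DESeq2 1.42.0, limma 3.58.1, a replicate block and each library left out. The members and gene lists were chosen with earlier results of these data known. Named genes were all members, up to 4 called genes of each list per comparison with the largest log2 change, and the 5 genes most like ATF4 or DDIT3, of which 1 is not reported here. Whether same-numbered libraries deviate together was looked at within the main comparisons only, not across fractions. The main fits, those between fractions included, used no pairing. Within the main comparisons, same-numbered libraries deviated together (every correlation over 0.1) only in T4 at 72 h (0.28, 0.64 and 0.14) and in LM2 nuclei (0.64, 0.76 and 0.16). The pairing is thus from the data, not the labels. The labels give no batch.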

Additional observations from a re-analysis of the deposited data

Results flagged for a closer look

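The change with T4 in LM2 cells differed between harvest times for 3 members, by an interaction test in edgeR. The T4 change at 24 h minus that at 6 h was 3.43 ± 0.67 on the log2 scale for CHAC1 (adjusted p = 0.0037), which rests on 7 T4 reads in all at 6 h. It was 2.29 ± 0.26 for DDIT3 (adjusted p = 3.8e-05) and 1.87 ± 0.45 for TRIB3 (adjusted p = 0.015). In each the 3 T4 libraries lay under the DMSO libraries at 6 h and did not at 24 h.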

How the results depend on the processing

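No member's change reversed under any alternative run, where it was called. Called members numbered 9 and 8 under gHNRNPC (cytoplasm, nuclei), 4, 0 and 0 with T4 (6, 24, 72 h) and 2 and 1 in LM2 (cytoplasm, nuclei). With only transcripts of the same version, which drops most members' transcripts, they numbered 2 and 2, 1 at 6 h, and 1 and 0. With library totals they numbered 1 in LM2 cytoplasm, 1 in DMSO over time (72 h against 24 h) and 3 between Par fractions. With no filter 1 was called at 72 h. DESeq2 called 1 at 24 h and 1 in the interaction of 72 h and 24 h. With only the groups compared, 1 was called at 24 h, 5 in LM2 cytoplasm and 0 in LM2 nuclei, and 1 for site use in knockdown cytoplasm and 1 in LM2 cytoplasm. Leaving out each library in turn gave 8 to 9 and 8 under gHNRNPC, 1 to 2 for DMSO over time, 1 in LM2 cytoplasm, 1 to 2 in LM2 nuclei, and 0 to 1 for site use in each knockdown fraction. Without both nuclear libraries numbered 2, an alternative chosen after seeing the data, 2 were called in LM2 nuclei. Smaller moves came from DDIT4, called in knockdown cytoplasm with library totals or only the groups compared (10 members each) and at 6 h without T4 library 3 (5 members), and from CHAC1, called in LM2 cytoplasm with median-of-ratios scaling, transcript ends only or DESeq2. With a site mean of at least 50, 1 was called for site use in knockdown cytoplasm. Counts of all genes called moved more: 2185 (1395 to 2270) and 1322 (779 to 1319) under gHNRNPC, 1284 (413 to 1910), 421 (163 to 1970) and 21 (0 to 83) with T4, 931 (224 to 2489) and 190 (28 to 255) in LM2.

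With a replicate block the same numbers of members were called in each comparison of expression: 9 and 8, 4, 0 and 0, 2 and 1. The block ended the site-use call of DDIT4 in knockdown nuclei (0 called, adjusted p = 0.053), where the numbers do not pair the libraries, as did limma on the ratio (0 called, adjusted p = 0.057). Members with few reads, CEBPG in every table and CHAC1 with T4 at 6 h, are limited by depth.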
